A study of Homo sapiens with 16 samples.

Results

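The expression of 10 imprinted genes, chosen by symbol, was compared across 16 libraries of RWPE1 cells: PEG3, NDN, PEG10, SGCE, MEST, PLAGL1, H19, IGF2, GRB10 and DLK1. All 10 of 10 symbols were found among the 20166 symbols of the table, each on a single row. RWPE1 is an established line of human prostate epithelium immortalised with a papillomavirus. The first group, 6 libraries, came from cells engineered to over-express the study's wild-type construct, 4 were labelled as its T164A mutant, and 6 carried the empty vector (altered pTRIPZ). By their labels, all 3 groups are engineered RWPE1 cells. In the 4 libraries labelled T164A, the gene the constructs encode was far lower than in wild type and much nearer to vector, though above it. Every value of theirs is therefore given for the libraries as labelled, and whether they over-express the mutant is in doubt. The labels do not say whether a group is 1 clone or a pool, or whether its libraries are separate cultures. A p-value here therefore reflects variation from library to library, part or all of which may be technical.

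In genomic imprinting, a DNA methylation mark laid down in the egg or the sperm lets a gene be transcribed from the copy of 1 parent and silences it on the copy of the other. Imprinted genes lie in clusters that share a control region, so neighbours can be expressed from the same copy or from opposite copies. Many act in fetal growth, placenta and metabolism and are turned down after birth. The values below sum both parental copies, so they do not show which copy was transcribed.

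Promoter windows were matched for 5 of the 10 genes (NDN, PLAGL1, H19, MEST and GRB10) in the RefSeq table used here, with 17 windows in all. Windows of 3 genes are shown, because NDN, PLAGL1 and H19 had the largest called differences from the vector among these 5 genes. For PLAGL1, with 5 starts, the one richest in CG dinucleotides is printed. Each is the 250 bases upstream of the start, read 5′ to 3′ on the gene's strand in GRCh38.p14. Capitals mark TGCCGC or its complement GCGGCA, the hexamer bound by ZFP57, a zinc finger protein that keeps methylation on imprinted control regions.
NDN, chr15:23687306-23687555, minus strand: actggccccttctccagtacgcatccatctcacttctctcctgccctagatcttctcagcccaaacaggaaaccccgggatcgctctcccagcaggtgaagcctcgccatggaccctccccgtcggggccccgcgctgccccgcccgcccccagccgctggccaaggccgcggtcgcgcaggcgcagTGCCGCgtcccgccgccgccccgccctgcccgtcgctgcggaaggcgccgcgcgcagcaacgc
PLAGL1, chr6:144008260-144008509, minus strand: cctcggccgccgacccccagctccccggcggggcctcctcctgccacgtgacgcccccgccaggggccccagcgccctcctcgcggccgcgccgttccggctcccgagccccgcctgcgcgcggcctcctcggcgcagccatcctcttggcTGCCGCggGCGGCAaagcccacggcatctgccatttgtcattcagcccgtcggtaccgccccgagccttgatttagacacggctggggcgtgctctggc
H19, chr11:2001267-2001516, minus strand: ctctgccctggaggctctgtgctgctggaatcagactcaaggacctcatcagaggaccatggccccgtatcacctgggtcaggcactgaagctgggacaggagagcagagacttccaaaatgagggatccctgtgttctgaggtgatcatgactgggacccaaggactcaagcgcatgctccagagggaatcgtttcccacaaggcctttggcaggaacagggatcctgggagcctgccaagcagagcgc

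The windows of NDN and PLAGL1 held 30 and 32 CG dinucleotides, and that of H19 held 4, beside a median of 11 over 35116 RefSeq windows of the same length. The hexamer occurred once in the NDN window and in both orientations in the PLAGL1 window, and not in the H19 window. It lies in 12.75% of all windows on either strand and in 4 of the 17 windows of these 5 genes. A match is a string of letters and not a mapped site, and the table gives 1 value per gene, so a value cannot be assigned to any 1 start.

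Values are the deposited log2 levels, which are not per length, so levels are compared only between libraries of the same gene. A difference of 1 is 2-fold. A count of 3 reads corresponds to 2.30 on this scale on average, and this value serves as the floor of detection. Estimated depth was 12300000 to 19200000 reads per library. Differences were tested with limma in 1 fit over all genes, and adjusted p-values (Benjamini-Hochberg) are over 20166 symbols, with a call at 0.05.

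Basal epithelial markers were present in every group: all 13 lay above the floor, with a summed level of 179000 to 245000 normalised reads in wild type, 124000 to 145000 in the libraries labelled T164A and 305000 to 364000 in vector. Markers of other cells differed between the groups. All 16 prostate luminal markers were above the floor in wild type (summed level 57600 to 118000), 10 in the libraries labelled T164A (3960 to 4210, with KLK3, KLK2, TMPRSS2, HPN, MSMB and TRPM8 below it) and 9 in vector (1540 to 2670, with KLK3, KLK2, KLK4, HPN, MSMB and TRPM8 among those below it). Of 12 neural and embryonic markers, 6 were above the floor in wild type (176 to 214), 10 in the libraries labelled T164A (16900 to 18100) and 6 in vector (241 to 304). IRS4, CHGA, LIN28A, LIN28B and NCAM1 lay below the floor on average in both wild type and vector. Of 13 mesenchymal, endothelial and leukocyte markers, 5 were above it in wild type, 8 in the libraries labelled T164A and 5 in vector. Their summed levels were 1660 to 2060, 5800 to 6420 and 2330 to 3070. VIM, at a mean of 12.33 against 7.54 in vector, made up most of the sum in the libraries labelled T164A. Against vector, 5 of the 13 were called higher in these libraries and 5 lower (76.9%, beside 64.4% of all symbols). COL1A1, for example, was lower, at 9.24 against 10.85. COL1A2, CDH5, DCN and CD3E were below the floor on average in every group. The part of these other markers in the results below was not tested. In such bulk RNA, fewer cells of a type and less RNA per cell cannot be told apart.

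**Figure D1:**
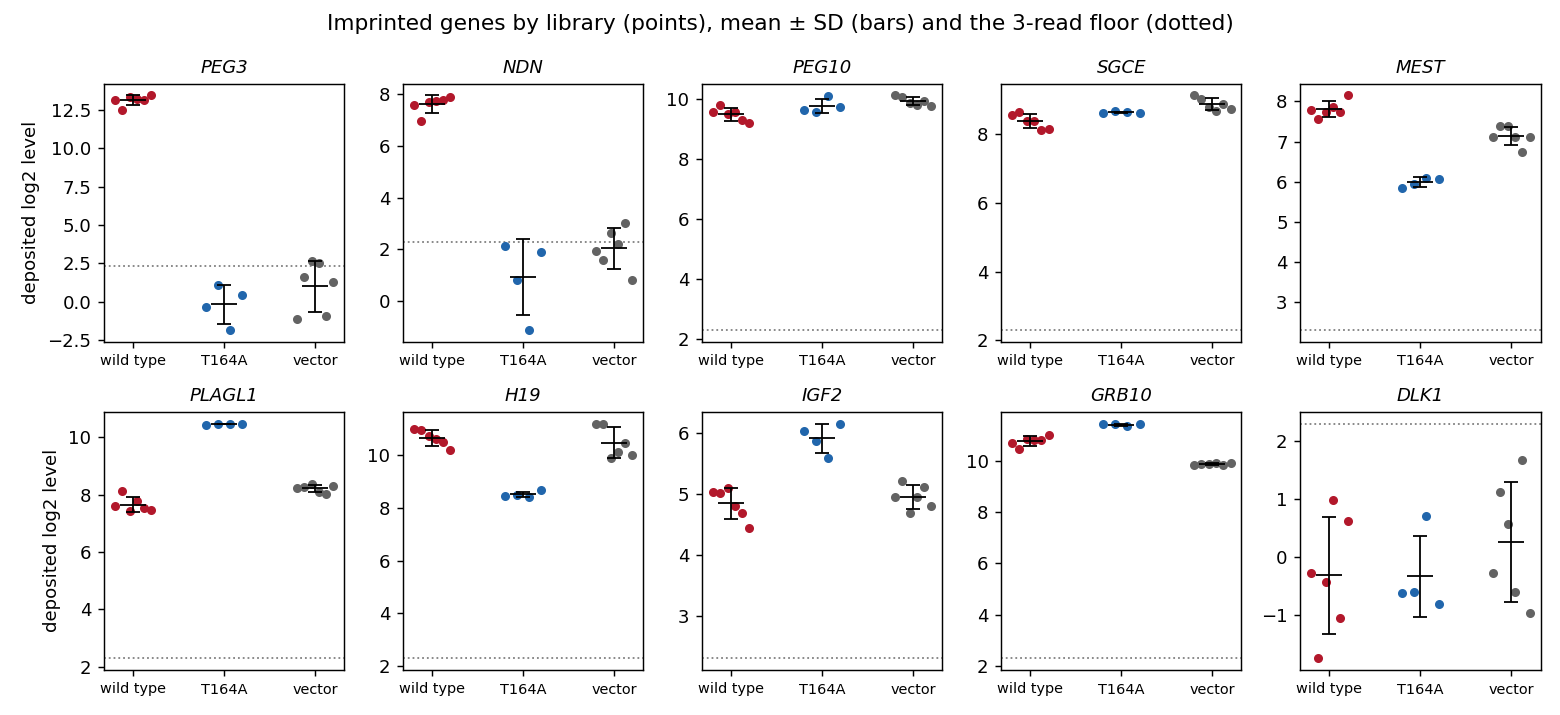
Deposited log2 level (y axis) of each of the 10 imprinted genes in every library, with wild type, T164A and vector along the x axis; bars are mean ± SD and the dotted line is the floor of 3 reads. PEG3 and NDN stand above the floor in all 6 wild-type libraries, PLAGL1 is highest and H19 lowest in the 4 libraries labelled T164A, and DLK1 is below the floor in every library.

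PEG3 and NDN, both transcribed from the paternal copy, were high in wild type and at or near the floor elsewhere. PEG3 encodes a large zinc finger protein. Its level in wild type had a lowest value of 12.53, a median of 13.19 and a highest value of 13.46. In the libraries labelled T164A it was at -0.36, 1.09, -1.83 and 0.44, and in vector it ran from -1.12 over a median of 1.45 to 2.67. All 4 libraries labelled T164A and 4 of 6 vector libraries were below their own 3-read floor, and vector replicates 3 and 4 were slightly above it. The wild-type mean, 13.14 ± 0.32 (SD, n = 6), was at least 10.84 above the floor, or at least 1830-fold (limma adjusted p = 7.03e-16 against vector and 2.66e-16 against the libraries labelled T164A). The rise of PEG3 was already known when these genes were chosen, so its p-values are no independent evidence. No fold is given between the libraries labelled T164A and vector, both below the floor on average.

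NDN encodes necdin, a MAGE family protein known in mouse as a growth suppressor of postmitotic neurons. It was at 6.93, 7.71 and 7.88 (lowest, median and highest) in wild type, at 2.12, 0.81, -1.11 and 1.90 in the libraries labelled T164A, and at 0.81, 2.08 and 3.02 in vector. No wild-type library overlapped either other group. The wild-type mean of 7.60 ± 0.34 (n = 6) was at least 5.30 above the floor, or at least 39.3-fold (limma adjusted p = 5.73e-11 against vector and 3.27e-12 against the libraries labelled T164A). NDN also passed the threshold between the libraries labelled T164A and vector (adjusted p = 0.0455), but both means, 0.93 and 2.03, lay below the floor, so no fold is given.

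Within wild type, PEG3 was lowest in replicate 14 (12.53), followed by replicates 13 (13.13), 17 (13.14), 16 (13.23), 15 (13.34) and 18 (13.46). The summed luminal markers followed the same order, with log2 sums of 15.81, 16.47, 16.56, 16.60, 16.68 and 16.85 in those libraries. NDN shared both ends of that order, at 6.93 in replicate 14 and 7.88 in replicate 18, with the 4 other libraries between 7.58 and 7.78. Replicate 14 was the wild-type library nearest to the vector mean for 8 of the 10 genes, the exceptions being H19 and DLK1. Replicate 18 was the farthest for PEG3, NDN, PEG10, MEST, IGF2 and GRB10.

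**Figure D2:**
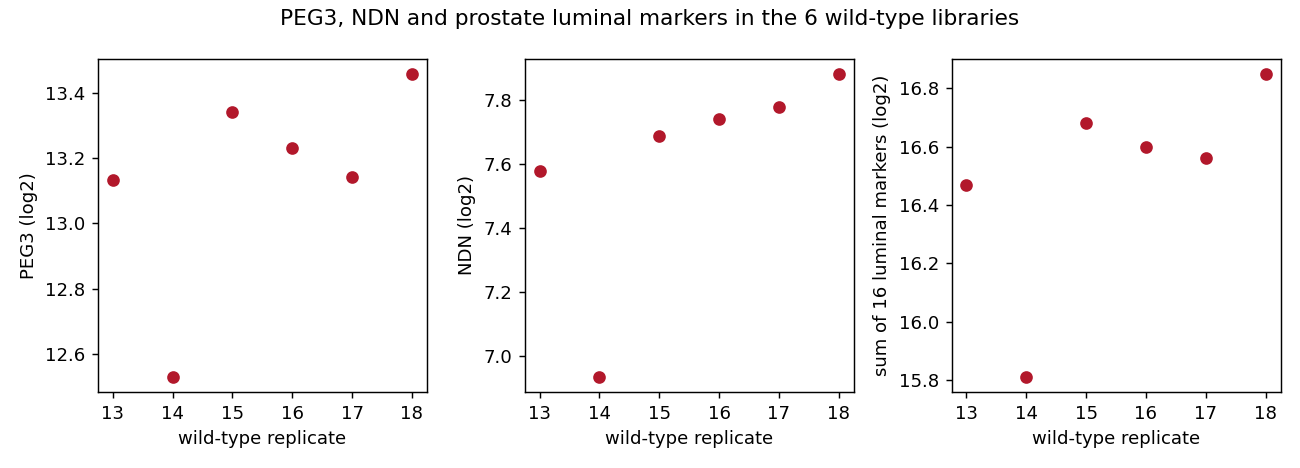
Log2 level of PEG3 and NDN and log2 of the summed level of 16 prostate luminal markers (y axes) in the 6 wild-type libraries (x axis, replicate number); each panel has its own y range, which does not start at 0. Replicate 14 is lowest and replicate 18 highest in all 3 panels.

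The 3 genes most like PEG3 over the 16 libraries, by the root-mean-square difference between centred profiles, were KLK2 (0.44), TMPRSS2 (0.45) and the Y-linked USP9Y (0.58), beside a median of 5.23 over all genes. KLK2 and TMPRSS2 encode prostate proteases. USP9Y averaged 11.95 in wild type, 0.58 in the libraries labelled T164A and 1.6 in vector, below the floor outside wild type. Among those most like NDN were the glutathione transferase GSTT1 (0.19) and MPV17L (0.21), beside a median of 2.56. The wild-type means of GSTT1 and MPV17L were 7.78 and 7.25, and each was below the floor on average in the other 2 groups. Likeness is a description of 16 libraries that share 3 groups. Whether the 3 groups hold the same cells was not tested.

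Against vector, wild type had 4 of the 10 genes higher and 3 lower, which is 70% called, beside 45.5% of all symbols tested (21% higher and 24.5% lower). Shares over all symbols, here and below, include symbols below the floor in every group, while 9 of the 10 genes had a group mean above it here. The median difference of the 10 was 0.04, beside -0.05 over all symbols. The 3 genes without a call were H19, IGF2 and DLK1. Apart from PEG3 and NDN, the differences were under 1 log2 unit.

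GRB10, an adaptor that binds and restrains the insulin and IGF1 receptors, was at 10.43, 10.79 and 10.98 (lowest, median and highest) in wild type. It was at 11.42, 11.42, 11.34 and 11.43 in the libraries labelled T164A and at 9.83, 9.87 and 9.93 in vector. The 3 groups did not overlap: the libraries labelled T164A were highest, wild type lay between and vector was lowest. Wild type exceeded vector by 0.88 (SE 0.06, 1.84-fold, limma adjusted p = 2.37e-11), and the libraries labelled T164A did so by 1.53 (SE 0.07, 2.88-fold, adjusted p = 6.05e-16). Wild type lay 0.64 below the libraries labelled T164A (difference -0.64, SE 0.07, adjusted p = 1.47e-08).

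MEST, a paternally expressed gene for a protein of the alpha/beta hydrolase fold, was higher than vector in wild type and lower than vector in the libraries labelled T164A. It was at 7.56, 7.76 and 8.15 (lowest, median and highest) in wild type, at 5.84, 5.94, 6.09 and 6.07 in the libraries labelled T164A, and at 6.74, 7.12 and 7.38 in vector. Again no 2 groups overlapped. Wild type was higher than vector by 0.66 (SE 0.11, limma adjusted p = 2.74e-05), and MEST fell by 1.15 in the libraries labelled T164A (SE 0.13, adjusted p = 1e-08). Wild type minus T164A was 1.82 (SE 0.13, adjusted p = 2.35e-12). Under quantile normalization the difference of the libraries labelled T164A from vector was -1.74, with its call kept. With close libraries averaged, wild type minus vector was 0.65, and its call was kept at adjusted p = 0.0245.

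PLAGL1, also called ZAC1, encodes a zinc finger protein that can arrest the cell cycle. It was at 7.41, 7.56 and 8.13 (lowest, median and highest) in wild type, at 10.44, 10.46, 10.47 and 10.47 in the libraries labelled T164A, and at 8.03, 8.24 and 8.37 in vector. Wild-type replicate 14, at 8.13, lay inside the vector range and the other 5 wild-type libraries below it. The difference of wild type from vector was -0.57 (SE 0.09, limma adjusted p = 1.57e-05). With close libraries averaged it was -0.34 and without a call (adjusted p = 0.14). The libraries labelled T164A rose by 2.24 over vector (SE 0.11, 4.73-fold, adjusted p = 5.24e-16), and wild type minus T164A was -2.81 (SE 0.11, adjusted p = 8.91e-18). PLAGL1 thus had the largest difference between the libraries labelled T164A and vector of the 7 genes with a group above the floor in that comparison.

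**Figure D3:**
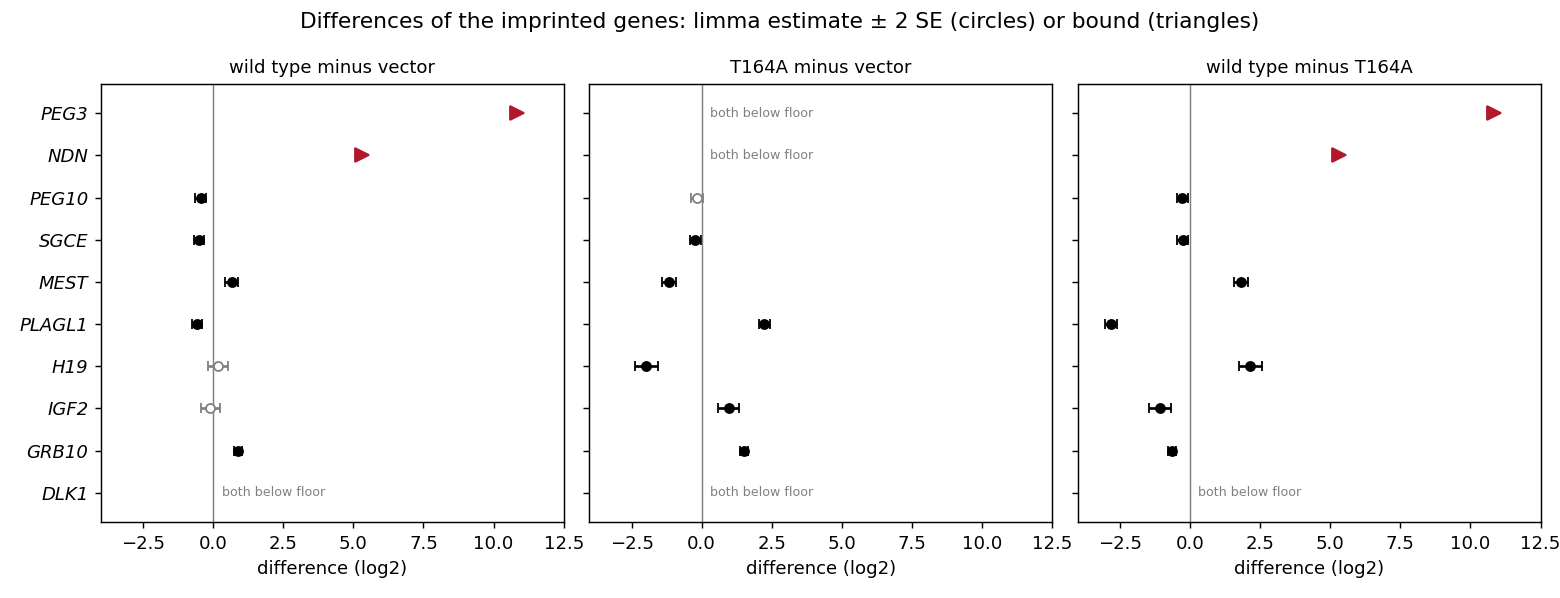
Log2 difference (x axis) of each imprinted gene in the 3 comparisons; circles are limma estimates with bars of ± 2 SE (filled where called), and triangles are lower bounds against the floor. Only PEG3 and NDN lie beyond 5 in the panels with wild type, while PLAGL1 (2.24) and H19 (-1.97) are the largest in the T164A minus vector panel.

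Of the 10 genes, the libraries labelled T164A had 3 higher and 4 lower than vector, again 70%, beside 64.4% of all symbols (37.1% higher and 27.2% lower). One of the 4 lower calls is NDN, with both means below the floor. The median difference of the 10 was -0.41, beside 0.11 over all symbols. In the direct comparison of wild type with the libraries labelled T164A, 4 were higher and 5 lower, or 90%, beside 61.8% of all symbols (26.7% higher and 35.1% lower). The same 6 vector libraries served in both comparisons with vector.

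H19 and IGF2 share an enhancer and a control region at which CTCF binds. H19, a maternally transcribed long non-coding RNA, was at 10.19, 10.65 and 10.99 (lowest, median and highest) in wild type. It was at 8.46, 8.49, 8.40 and 8.66 in the libraries labelled T164A. In vector it spread from 9.87 over 10.29 to 11.19, with replicates 1 and 2 both at 11.19, replicate 5 at 10.45 and replicates 3, 4 and 6 between 9.87 and 10.13. All 6 wild-type libraries lay inside the vector range, and the 4 labelled T164A lay below every other library. H19 fell by 1.97 in the libraries labelled T164A (SE 0.20, 3.91-fold, limma adjusted p = 2.08e-09), and wild type minus T164A was 2.15 (SE 0.20, adjusted p = 4.91e-10). Wild type minus vector was 0.18 (SE 0.18, adjusted p = 0.448). It was 0.54 and called (adjusted p = 0.000924) without vector replicates 1 and 2 together, a setting chosen after their values were seen.

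IGF2, the paternally expressed growth factor, was at 4.44, 4.92 and 5.09 (lowest, median and highest) in wild type, at 6.03, 5.87, 5.60 and 6.16 in the libraries labelled T164A, and at 4.68, 4.95 and 5.21 in vector. The libraries labelled T164A were above every other library, by 0.96 over vector on average (SE 0.19, limma adjusted p = 8.11e-05). Wild type minus T164A was -1.07 (SE 0.19, adjusted p = 2.34e-05) and wild type minus vector was -0.11 (SE 0.17, adjusted p = 0.669). Quantile normalization changed calls here: T164A minus vector was then 0.27 (adjusted p = 0.227) and wild type minus vector -0.48 (adjusted p = 0.0225), while wild type minus T164A kept its call at -0.75 (adjusted p = 0.00129).

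Within a library, H19 exceeded IGF2 on the log2 scale by 5.81 ± 0.13 in wild type (n = 6), by 2.59 ± 0.16 in the libraries labelled T164A (n = 4) and by 5.52 ± 0.46 in vector (n = 6). The ranges were 5.62 to 5.96 in wild type, 2.43 to 2.80 in the libraries labelled T164A and 5.18 to 6.24 in vector. These differences are not per length and show only how the relation of the pair varied between libraries. H19 was lower and IGF2 higher in all 4 libraries labelled T164A than in any vector library. Within wild type, replicates 13, 14 and 15 had the 3 highest values of both genes and replicate 18 the lowest.

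PEG10 and SGCE are neighbours transcribed in opposite directions from the paternal copy. PEG10 descends from a retrotransposon and is needed for the placenta in mouse, and SGCE encodes epsilon-sarcoglycan, a membrane protein. PEG10 was at 9.18, 9.52 and 9.78 (lowest, median and highest) in wild type, at 9.63, 9.55, 10.08 and 9.73 in the libraries labelled T164A, and at 9.77, 9.90 and 10.11 in vector. SGCE was at 8.14, 8.39 and 8.65 in wild type, at 8.63, 8.67, 8.65 and 8.63 in the libraries labelled T164A, and at 8.67, 8.84 and 9.14 in vector.

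Both genes fell in wild type, PEG10 with a difference of -0.45 from vector (SE 0.09, limma adjusted p = 0.000283) and SGCE with -0.49 (SE 0.09, adjusted p = 4.4e-05). The PEG10 call was lost with a minimum fold of 1.2 (adjusted p = 0.124) and with close libraries averaged (adjusted p = 0.107). With close libraries averaged, SGCE kept its call narrowly, at -0.41 (adjusted p = 0.0464). For the libraries labelled T164A against vector, SGCE differed by -0.23 (SE 0.10, adjusted p = 0.0429), a call lost under 11 alternatives. Of these, 7 left out 1 library (vector replicate 1, 2 or 5, or any of the 4 labelled T164A), and under quantile normalization the difference was -0.47 with its call kept. PEG10 differed by -0.18 (SE 0.10, adjusted p = 0.151), and by -0.29 without replicate 93 (adjusted p = 0.0146). Wild type minus T164A was -0.27 for PEG10 (adjusted p = 0.0264) and -0.26 for SGCE (adjusted p = 0.0228), and both calls were lost under quantile normalization (-0.14 and -0.11) and without wild-type replicate 17 or 18. The PEG10 call was also lost without T164A replicate 93 (-0.16, adjusted p = 0.173), and the SGCE call without T164A replicate 92 (adjusted p = 0.0502).

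PEG10 and SGCE kept nearly the same distance from each other. PEG10 exceeded SGCE within a library by 1.09 ± 0.07 in wild type (n = 6, range 0.99 to 1.16), by 1.10 ± 0.23 in the libraries labelled T164A (n = 4, range 0.88 to 1.43) and by 1.04 ± 0.04 in vector (n = 6, range 0.97 to 1.10). T164A replicate 93, where PEG10 was at 10.08, gave the value of 1.43. The genes most like PEG10 in pattern were STRN (0.09), the receptor tyrosine kinase MET (0.09) and KDELC1 (0.10), and those most like SGCE were the polarity gene PARD3 (0.09), RCAN1 (0.10) and LUZP1 (0.10), beside medians of 0.39 over all genes for both.

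**Figure D4:**
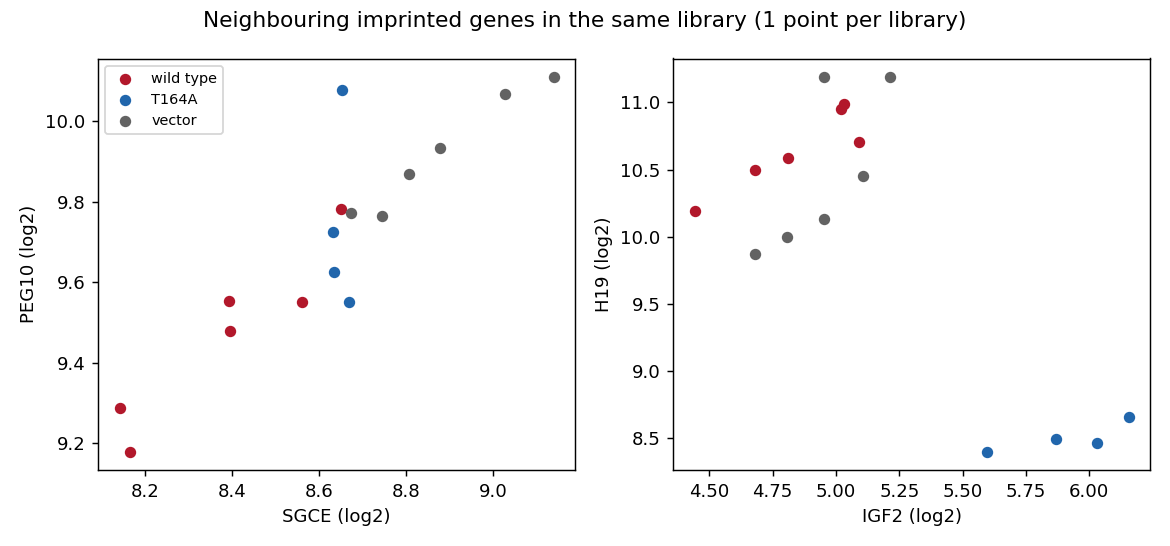
Log2 level of PEG10 against SGCE and of H19 against IGF2, with 1 point per library, coloured by group; the axes do not start at 0. PEG10 minus SGCE stays between 0.88 and 1.43, while H19 minus IGF2 is 2.43 to 2.80 in the 4 libraries labelled T164A and 5.18 to 6.24 in the others.

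DLK1, a membrane protein of the NOTCH ligand type that holds back fat cell formation in mouse, was below the floor in all 16 libraries. Its values were -1.75 to 0.98 in wild type, -0.81 to 0.70 in the libraries labelled T164A and -0.97 to 1.68 in vector, so it was not detectable at this depth. Its maternally expressed neighbour MEG3, a non-coding RNA, was near the floor as well, at means of 1.92, 2.78 and 2.59 in wild type, T164A and vector, with no call in any comparison.

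Patterns like those of the other genes were found by the same measure. PLAGL1 was most like the kinase-related gene TRIB2 (0.14), the chromatin protein gene HMGA2 (0.15) and CACHD1 (0.17), all higher in the libraries labelled T164A, with means of 9.54, 11.31 and 9.61. GRB10 was most like ACO1 (0.08), MRFAP1 (0.08) and C22orf39 (0.08). MEST was most like BDP1 (0.19), FHDC1 (0.20) and PMEPA1 (0.20), and H19 was most like CYP2W1 (0.22), the epidermal kinase RIPK4 (0.28) and MXRA5 (0.29). The medians over all genes were 1.14 for PLAGL1, 0.63 for GRB10, 0.76 for MEST and 0.99 for H19.

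Other genes of the same imprinted regions were listed by symbol, and 40 of 48 listed symbols were measured. In wild type against vector 15 were higher and 4 lower, or 47.5%, beside the 45.5% of all symbols, with a median difference of 0.38. Only 28 of the 40 had a group mean above the floor there, and 13 of these were higher and 4 lower. The libraries labelled T164A had 15 higher and 9 lower, or 60%, beside 64.4%. In the direct comparison 14 were higher and 11 lower, or 62.5%, beside 61.8%. The 4 with the smallest p in wild type against vector all rose. MKRN3, a RING finger gene of the NDN region, and DDC, the aromatic amino acid decarboxylase next to GRB10, were at least 3.95 and 5.80 above the floor. The potassium channel KCNQ1 was at least 3.82 above it, and PPP1R9A, a neighbour of PEG10, rose by 1.41 (SE 0.12, limma adjusted p = 2.09e-10). Against vector, the 4 in the libraries labelled T164A were COPG2 and CPA4, both near MEST, with differences of 1.67 (SE 0.08) and -1.84 (SE 0.10), PPP1R9A with 1.93 (SE 0.13), and MKRN3, at least 2.45 above the floor.

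The region of NDN did not move as a block, a description made after its values were seen. MKRN3 averaged 6.26 ± 0.23 in wild type (n = 6), 4.75 ± 0.21 in the libraries labelled T164A (n = 4) and 0.14 ± 0.98 in vector (n = 6), and its 3 groups did not overlap. It was therefore above the floor in the libraries labelled T164A, where NDN was not. MAGEL2, another MAGE family gene of that region, was below the floor in all 16 libraries. The splicing gene SNRPN was at 5.85 ± 0.22 in wild type, 1.64 ± 0.40 in the libraries labelled T164A, below the floor, and 3.69 ± 0.28 in vector (wild type minus vector 2.16, SE 0.23, limma adjusted p = 2.99e-08). SNURF, read from the same transcript, had means of 6.19, 0.03 and 2.95 in wild type, T164A and vector. ATP10A, a lipid flippase gene, was at 7.28 ± 0.38 in wild type, 2.36 ± 0.82 in the libraries labelled T164A and 3.90 ± 0.55 in vector (wild type minus vector 3.38, SE 0.29, adjusted p = 4.32e-10). UBE3A, a ubiquitin ligase gene that is imprinted in neurons, differed by -0.06 between wild type and vector (SE 0.07, adjusted p = 0.523) and by -0.77 between the libraries labelled T164A and vector (SE 0.08, adjusted p = 4.3e-09).

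**Figure D5:**
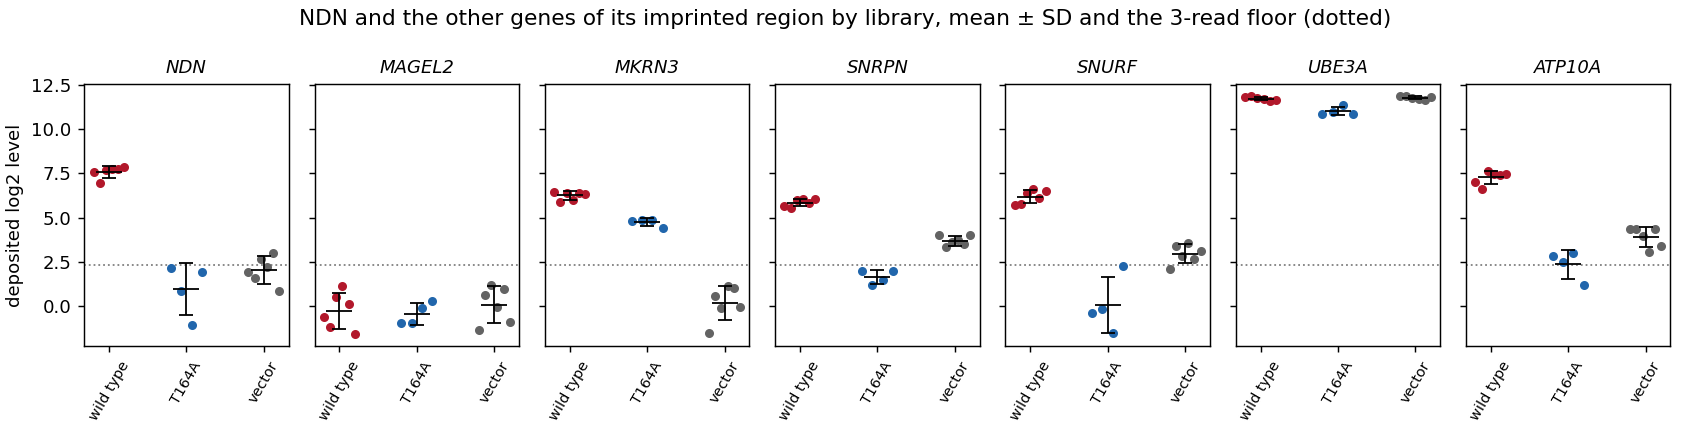
Deposited log2 level (y axis) of NDN and 6 listed genes of its imprinted region in each library by group; bars are mean ± SD and the dotted line is the floor of 3 reads. NDN is above the floor throughout wild type alone, MKRN3 in wild type (mean 6.26) and T164A (4.75), SNRPN and ATP10A are highest in wild type, UBE3A is above 10 in every library, and MAGEL2 is below the floor everywhere.

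Of 25 listed imprinted genes at other loci, 23 were measured. A group mean was above the floor for 21 of them in wild type against vector and for 22 in T164A against vector. In wild type against vector 2 were higher and 12 lower (60.9%, beside 45.5%), and in the libraries labelled T164A against vector 7 were higher and 13 lower (87%, beside 64.4%), with median differences of -0.30 and -0.48. The rises in wild type were the organic cation transporter genes SLC22A3, by 0.94 (SE 0.07, limma adjusted p = 7.41e-11), and SLC22A2, at least 1.74 above the floor. BLCAP (-0.52) and AMPD3 (-0.70) were among the falls. SLC22A3 fell by 3.31 in the libraries labelled T164A (SE 0.08, adjusted p = 1.85e-21), at a mean of 7.50 against 10.81. The chemerin receptor gene GPR1 differed by -4.48 (SE 0.17) and NLRP2 by -1.94 (SE 0.06), while GNAS, which encodes the stimulatory G protein alpha subunit, rose by 1.01 (SE 0.05). Wild type minus T164A for these 4 was 4.25, 3.81, 1.69 and -1.02 for SLC22A3, GPR1, NLRP2 and GNAS.

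Genes that write, read or remove imprints were a further list of 20, all measured. A group mean was above the floor for 17 of them in wild type against vector and for 18 in T164A against vector. In wild type against vector 5 were higher and 7 lower (60%, beside 45.5%), and in the libraries labelled T164A against vector 13 were higher and 4 lower (85%, beside 64.4%). TET1, which oxidises methylcytosine, averaged 5.47 ± 0.28 in wild type (n = 6), 9.51 ± 0.08 in the libraries labelled T164A (n = 4) and 2.68 ± 0.51 in vector (n = 6), and the groups did not overlap. ZFP57, whose hexamer is marked in the promoter sequences above, was at 8.90 ± 0.17 in wild type, 8.76 ± 0.13 in the libraries labelled T164A and 9.47 ± 0.13 in vector. It fell by 0.57 in wild type (SE 0.08, limma adjusted p = 1.1e-06) and by 0.72 in the libraries labelled T164A (SE 0.08, adjusted p = 5.29e-08). In wild type the chromatin remodeller HELLS (-0.40) and the methyltransferase DNMT3B (-0.42) were also lower. Both lost the call when close libraries were averaged (limma adjusted p = 0.272 and 0.083) and with a minimum fold of 1.2 (adjusted p = 0.156 and 0.153). Among the libraries labelled T164A, the maintenance factor UHRF1 rose by 1.05, the imprint reader ZNF445 by 0.77 and DNMT3B by 0.83, while TET2 differed by -0.93. EHMT2 (G9a), named in the series title, averaged 10.01 ± 0.12 in wild type (n = 6), 10.66 ± 0.16 in the libraries labelled T164A (n = 4) and 9.82 ± 0.11 in vector (n = 6).

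The IGF axis, in which IGF2 and GRB10 act, was listed with 18 genes, all measured. A group mean was above the floor for 14 of them in wild type against vector and for 16 in T164A against vector. In wild type against vector 2 were higher and 7 lower (50%, beside 45.5%), and in the libraries labelled T164A against vector 8 were higher and 4 lower (66.7%, beside 64.4%). The insulin receptor gene INSR rose in both, by 0.99 (SE 0.06) in wild type and by 1.23 (SE 0.07) in the libraries labelled T164A (limma adjusted p = 2.39e-12 and 4.36e-14). IGF2BP2 (-0.72), IRS1 (-0.47) and IGF2BP3 (-0.49), the first and last of which bind IGF2 mRNA, were lower in wild type. The IGF2BP3 call was lost with close libraries averaged (-0.32, limma adjusted p = 0.113). IGF2BP1 in the libraries labelled T164A was at 12.14 ± 0.03 (n = 4) against 4.62 ± 0.31 in vector (n = 6), a difference of 7.52 (SE 0.20, adjusted p = 8.56e-21). The receptor substrate IRS4 was at least 11.33 above the floor there, and IGFBP3, which binds IGF2 in the blood and tissue fluid, differed by -4.18 (SE 0.21). The type 2 receptor IGF2R, which clears IGF2 and stands in 2 of the lists, differed by -0.52 (SE 0.07, adjusted p = 2.29e-07).

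Relatives of NDN in the MAGE family were listed with 9 genes, all measured, MAGEL2 among them. A group mean was above the floor for 6 of the 9 in wild type against vector and for 7 in T164A against vector. In wild type against vector 4 were higher and 1 lower (55.6%, beside 45.5%), and in the libraries labelled T164A against vector 7 were higher and 0 lower (77.8%, beside 64.4%). MAGEE1 rose by 1.86 (SE 0.13), MAGED1 by 0.91 (SE 0.07), MAGED2 by 0.81 (SE 0.06) and MAGEF1 by 0.52 (SE 0.06) in wild type. In the libraries labelled T164A MAGED1 rose by 2.27 (SE 0.08), MAGEH1 by 2.13 (SE 0.17), MAGEE1 by 1.60 (SE 0.15) and MAGED2 by 1.49 (SE 0.07), with limma adjusted p of at most 4.32e-10.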

How the data were processed

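Poly-A selected RNA was sequenced on an Illumina instrument (TruSeq libraries), as the labels' protocols state. Log2 values, deposited by the authors, fill a table of 21594 rows with each library in its own column. GRCh37, DESeq, Cufflinks 2.0.2, TopHat2 2.0.4 and CASAVA 1.8.2 stand in the submitters' processing notes, without roles or order. The normalisation and transformation of the values are not given in the sources used here. Between 11.5 and 13, all values lay within 0.05 of equal steps once an offset of 1.89 was removed, which gave the estimated depth and the floor of 3 reads. Between 10 and 10.5 most did not, so read counts could not be recovered and count models were not used. Floors are extrapolated from the higher band and cover counting error only.

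Of 1732 rows that shared 304 symbols, the row with the highest mean was kept. Pairs of libraries within a group differed by more than sampling noise (chi-square per degree of freedom 4.34 to 152 over 547 genes). Each was entered as 1 replicate, but such differences do not show whether libraries are separate cultures. Some lay closer together than others: vector 1 and 2, vector 3, 4 and 6, wild type other than 14, and T164A other than 93.

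All 16 libraries entered 1 limma fit (limma 3.58.1 in R 4.3.3; two-sided, moderated by empirical Bayes with a trend of variance on level), tested on simulated data. The alternatives were quantile normalization, 2 filters on low values, array weights, a fit of only the pair of groups in question, a constant prior variance, a required fold of 1.2, low values set to the floor, close libraries averaged, and leaving out libraries. The genes and lists were chosen with earlier results of these data known. Named are the 10 genes, up to 4 per list and comparison with the smallest p and a mean above the floor, and the 3 genes most alike in pattern to each gene with a group mean of at least 6. Outside this rule, MEG3, MAGEL2, SNURF, UBE3A, IGF2R and EHMT2 are also named. Some named genes, such as ZFP57 and DNMT3B, are given in further comparisons. For likeness, values below the floor were set to it, and the root-mean-square difference of the centred profiles over 16 libraries was taken. Summed marker levels are sums of 2 raised to the log2 value, less the offset.

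Strand use in counting is not given, so genes that overlap others (H19, IGF2, PLAGL1, MEST, PEG3, SNRPN and SNURF) are uncertain. Promoter sequences are from RefSeq, GRCh38.p14. The values of the gene the constructs encode, and those of some listed or similar genes, are not reported here.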

Additional observations from a re-analysis of the deposited data

Results flagged for a closer look

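In 3 of 23 sets of libraries, 1 library was far from the others of its group, by Dixon's test of the gap over the range; chance alone gives about 1 in 20. PEG3 was at 12.53 in wild-type replicate 14, while the 5 others were at 13.13 to 13.46. NDN was at 6.93 in the same library, while the others were at 7.58 to 7.88. GRB10 was at 11.34 in T164A replicate 93, against 11.42 to 11.43 in the other 3. Without wild-type replicate 14 and T164A replicate 93 together, the calls of PEG3, NDN and GRB10 with a group mean above the floor were unchanged.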

How the results depend on the processing

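Over the members above the floor, 486 of 520 repeats of a difference under another setting kept its direction and its side of the threshold, 28 lost a call and 6 gained one, and none reversed. Where a group mean was above the floor, PEG3, NDN, MEST, GRB10 and H19 kept every call in the planned settings. The NDN call between T164A and vector, with both means below the floor, was not repeated. Of 1612 repeats for other named genes, 8 lost and 1 gained a call, and UBE3A in wild type against vector, without a call, turned to 0.0036 with close libraries averaged; the cause was not tested. Genes called in wild type against vector numbered 4091 with a minimum fold of 1.2 and 3821 with close libraries averaged, against 9183. Leaving out 1 library gave 8660 to 9498, 12573 to 12909 (T164A against vector) and 12006 to 12426 (wild type against T164A). Called members then numbered 7, 6 to 7 and 7 to 9. Quantile normalization shifted the median difference, over genes averaging at least 6, by -0.17 for T164A minus vector and by 0.14 for wild type minus T164A. It ended the IGF2 call between T164A and vector and added one for PEG10 (-0.31, adjusted p = 0.0111). Without wild-type replicate 17 or 18, the PEG10 and SGCE calls between wild type and T164A were lost. No paired analysis was possible because the groups share no replicate numbers. Low values limit DLK1 and, outside wild type, PEG3 and NDN.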
